A study of Homo sapiens with 54 samples.

Results

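The G2/M and mitosis genes described here are 36 genes that act from late S phase to the division of the cell, taken by symbol from a table of 25435 genes measured in 6 ovarian cancer cell lines. They were followed in untreated cultures and after 8 h and 24 h of carboplatin, a platinum drug that crosslinks DNA. All 36 were in the table, and all 36 passed the filter on low values that left 18013 genes for testing. By role they are 7 cyclins, CDK1 partners and CDC25 phosphatases, 9 mitotic kinases and their partners, 5 genes of the spindle checkpoint and the anaphase promoting complex (APC/C), 6 kinetochore and chromosome genes, and 9 spindle and cytokinesis genes.

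The lines form 3 pairs of high-grade serous ovarian cancer lines, each pair from 1 patient, with a platinum-resistant and a platinum-sensitive member: PEA2 (resistant) and PEA1 (sensitive), PEO4 (resistant) and PEO1 (sensitive), and PEO23 (resistant) and PEO14 (sensitive). Each line was grown in RPMI1640 with serum and sampled in 3 replicates untreated, after 8 h and after 24 h of 80 µM carboplatin, which gave 54 total RNA libraries in 18 groups. The labels give the untreated cultures no treatment time, while the series text has a vehicle control taken at the late time, so the duration behind the untreated level is uncertain. The series text also writes the dose in mM; the µM of the treatment protocol is used here. Each line is 1 established line, so a difference within a pair is a difference between 2 lines and not between 2 classes of tumour. PEA1 was at far later passages than PEA2 (23 to 27). In PEA2, PEA1, PEO4 and PEO1 every treated culture had a later passage than every untreated one, so passage and treatment cannot be told apart there; in PEO14 the passages met at 21 and 22. The repeats were made on separate days, as the series text states.

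Values are TPM, transcript levels per length, scaled to the same total in every library. Libraries that list fewer than 12000 genes above 0 TPM were left out, namely 12 libraries with 2678 to 11754 such genes, whereas the 42 kept had 12877 to 17133. Of the 3 replicates, 1 remained at 24 h in PEO4 and in PEO14 and untreated in PEA1, and 2 remained at 8 h in PEA2, PEO4 and PEO1. No untreated PEO23 library remained, so no treated PEO23 culture is set against an untreated one. TPM keeps no depth, so the depth is unknown. Of all TPM in the kept libraries, 7.14% to 45.6% came from RMRP and RPPH1, small structural RNAs, and ribosomal protein genes took a median of 19.8% in 29 treated libraries against 12.2% in 13 untreated ones. Each library was therefore divided by a size factor, its median ratio to the others over the 8287 genes detected in all 42, and these levels are called rescaled TPM. Of the 11 genes of the carcinoma list (KRT18, PAX8, EPCAM and others), 9 to 11 had a median above 1 TPM in 5 lines and 6 in PEA1. Of the 4 endothelial genes, CDH5 reached a median of 170.7 TPM in PEA2. Among the libraries left out, the one labelled untreated PEA1 replicate 3 goes against its label: its endothelial genes summed to 198.2 TPM (127.6 to 259 in PEA2 and 0 to 0.3 in PEA1 libraries kept) and its carcinoma genes to 5894 TPM (842.9 to 1153.5 in PEA1 libraries kept). It enters only the fit with all 54 libraries, where PEA1 had 1 call at 8 h against untreated with it and 0 without it.

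A cell enters mitosis when CDK1, bound to cyclin B, is freed of inhibitory phosphate by the CDC25 phosphatases. PLK1 and the Aurora kinases then drive centrosome maturation, spindle assembly and cytokinesis, while BUB1, BUB1B, BUB3, MAD2L1 and TTK hold back CDC20 and the APC/C until every chromosome is attached. The APC/C with UBE2C then marks securin (PTTG1) and the cyclins for destruction. The genes are transcribed late in the cycle by the MuvB complex with MYBL2 and FOXM1. In arrested cells MuvB joins the repressive DREAM complex, which reaches these genes through a promoter element called CHR (TTTGAA and close variants), often found near CCAAT boxes bound by NF-Y. Platinum damage activates ATR and CHEK1, which restrain CDC25 and so delay entry into mitosis.

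Promoters from RefSeq (assembly GRCh38.p14), 250 bases before to 50 after each gene's start, were at hand for 30 of the 36 genes, all but AURKA, TTK, UBE2C, BIRC5, TPX2 and BUB3. Of these 30 windows of 300 bases, 19 (63.3%) held TTTGAA on either strand, against 15.4% of all 27305 promoters. CCAAT on either strand was in 24 (80%), against 35.7% of all promoters, and both words were in 17 (56.7%), against 6.1%. The related words TTTAAA and TTCGAA were in 12 and 1 of the 30 windows, against 12.3% and 1.5% of all promoters. GGCGG, which can share its first letters with the reverse CCAAT word ATTGG, was in all 30 windows and in 58.6% of all promoters. The 5 windows shown belong to genes that carry the results on carboplatin. CDC20 (chr1:43358731-43359030), PLK1 (chr16:23678639-23678938) and CKS2 (chr9:89310945-89311244) hold both words. CCNB1 (chr5:69166900-69167199) holds CCAAT and the variant TTTAAA but no TTTGAA, and CDC25B (chr20:3786701-3787000) holds neither TTTGAA nor CCAAT. All 5 lie on the plus strand, and capitals mark TTTGAA and CCAAT in either orientation (TTCAAA and ATTGG are their reverse complements).
CDC20: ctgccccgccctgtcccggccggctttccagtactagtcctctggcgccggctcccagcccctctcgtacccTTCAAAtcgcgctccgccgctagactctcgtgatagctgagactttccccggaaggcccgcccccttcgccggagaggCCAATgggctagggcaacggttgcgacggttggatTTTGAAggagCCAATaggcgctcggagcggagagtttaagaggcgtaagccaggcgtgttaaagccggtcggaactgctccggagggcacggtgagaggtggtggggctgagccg
PLK1: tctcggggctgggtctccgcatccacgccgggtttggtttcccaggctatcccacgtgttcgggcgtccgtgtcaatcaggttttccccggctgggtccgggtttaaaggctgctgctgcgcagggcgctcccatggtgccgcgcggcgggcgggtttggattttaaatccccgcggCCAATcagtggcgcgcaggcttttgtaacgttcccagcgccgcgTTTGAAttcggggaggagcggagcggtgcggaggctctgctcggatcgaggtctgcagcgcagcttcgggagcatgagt
CKS2: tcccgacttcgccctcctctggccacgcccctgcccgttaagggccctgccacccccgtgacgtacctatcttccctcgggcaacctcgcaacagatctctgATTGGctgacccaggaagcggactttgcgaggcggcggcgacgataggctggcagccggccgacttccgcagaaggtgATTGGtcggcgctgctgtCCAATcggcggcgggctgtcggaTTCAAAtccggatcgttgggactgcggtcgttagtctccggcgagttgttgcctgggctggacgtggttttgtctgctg
CCNB1: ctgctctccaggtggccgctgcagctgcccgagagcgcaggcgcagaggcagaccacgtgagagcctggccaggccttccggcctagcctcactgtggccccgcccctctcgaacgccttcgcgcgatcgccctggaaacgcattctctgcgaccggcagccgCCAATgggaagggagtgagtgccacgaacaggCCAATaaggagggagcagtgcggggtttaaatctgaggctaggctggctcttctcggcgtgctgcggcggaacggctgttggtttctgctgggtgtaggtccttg
CDC25B: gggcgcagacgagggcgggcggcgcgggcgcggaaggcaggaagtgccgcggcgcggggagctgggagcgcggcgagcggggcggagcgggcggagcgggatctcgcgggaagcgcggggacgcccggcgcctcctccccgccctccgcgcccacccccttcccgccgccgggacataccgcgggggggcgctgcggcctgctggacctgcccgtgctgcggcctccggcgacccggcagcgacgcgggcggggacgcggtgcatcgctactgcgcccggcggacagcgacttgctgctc
In PLK1 and CKS2 the TTTGAA match begins at position -29 relative to the gene's start, and in CDC20 the 2 matches begin at positions -178 and -65. These matches describe letters in the windows; no binding was measured.

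Before treatment the 36 genes together took less of the TPM in PEO4 than in PEO1. Their summed TPM, before rescaling, was 1568.7, 1867.8 and 2112.8 in untreated PEO4, against 2206.1, 2904.4 and 3213.2 in untreated PEO1. Every PEO4 culture lay below every PEO1 culture. The sum was 3864.7, 4186.4 and 4860.7 in untreated PEA2, with 4390.6 in the 1 untreated PEA1 library inside that range, and 3070.8 to 3655.3 in untreated PEO14. In cultures as a whole, fewer cells in G2 and mitosis and less of these transcripts per cell cannot be told apart.

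**Figure D1:**
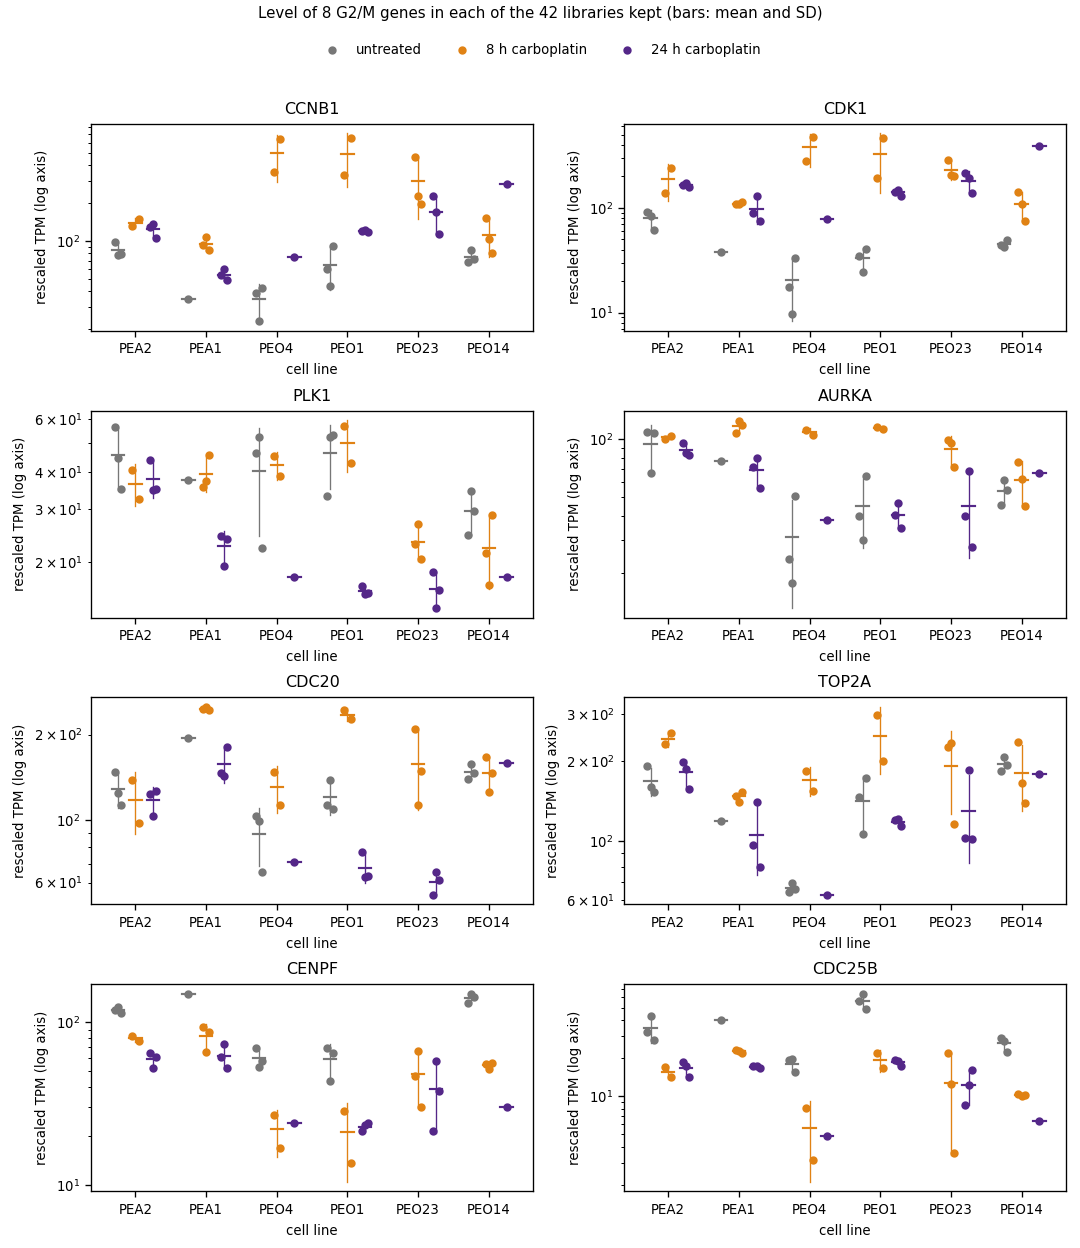
Rescaled TPM (log axis) of CCNB1, CDK1, PLK1, AURKA, CDC20, TOP2A, CENPF and CDC25B in each of the 42 libraries kept, by cell line and time (untreated, 8 h and 24 h of carboplatin), with each group's mean and, where it has more than 1 library, its SD. Within PEO4 and within PEO1, CCNB1 and CDK1 stood highest at 8 h, and the untreated means of CENPF and CDC25B lay above the treated ones in all 5 lines with an untreated library.

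The first question was how carboplatin changed the genes within each line. After 8 h in PEO4 and PEO1, CDK1, the mitotic kinase itself, its partners CCNB1 and CKS2, and the checkpoint protein MAD2L1 were among the genes that rose. In the same cultures CDC25B, a phosphatase that switches CDK1 on, and CENPF, a kinetochore protein made in G2, fell. CDK1 had 284 and 474 rescaled TPM at 8 h in PEO4, against 17.7, 9.74 and 33.3 in untreated PEO4, and 194 and 462 at 8 h in PEO1, against 34.4, 24.3 and 40.5 in untreated PEO1. Both lines' treated cultures lay above all their untreated ones. CCNB1, the cyclin that activates CDK1, had 353 and 639 at 8 h in PEO4, against 39.1, 23.2 and 42.9 untreated, and 333 and 650 at 8 h in PEO1, against 60.3, 43.8 and 91.2 untreated. On the scale of log2(rescaled TPM + 1), which understates the change of low genes, CDK1 was higher by 4.27 ± 0.37 (SE) in PEO4 and 3.17 ± 0.37 in PEO1 (adjusted p = 5e-10 and 2.4e-07, limma with Benjamini-Hochberg adjustment over the 18013 genes). CENPF had 27 and 17 rescaled TPM at 8 h in PEO4, against 69.4, 52.8 and 57.8 untreated, a log2 difference of -1.43 ± 0.32. CDC25B had 8.12 and 3.15 at 8 h in PEO4, against 19.2, 19.5 and 15.4 untreated, a log2 difference of -1.62 ± 0.38.

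MAD2L1, which stops CDC20 at unattached kinetochores, was near the floor of the untreated PEO4 libraries. It had 95.4 and 155 rescaled TPM at 8 h in PEO4, against 1.55 and 3 in 2 untreated libraries and a listed 0 in the third. In PEO1 it had 102.6 and 357 at 8 h, against 12.3, 0.81 and 16.2 untreated. CKS2, a small subunit that binds CDK1, had 243 and 688 at 8 h in PEO4, against 20.6, 23.6 and 7.1 untreated, a log2 difference of 4.66 ± 0.58. TTK, the kinase that starts the spindle checkpoint, was higher by 4.03 ± 0.39 in PEO4 and 2.34 ± 0.39 in PEO1 on the log2 scale.

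Called at an adjusted p under 0.05, 24 of the 36 genes rose and 3 fell in PEO4 after 8 h, in a background of 21.6% of all genes called higher and 32% called lower. In PEO1 21 rose and 2 fell, with 17.5% and 24.5% of all genes. In PEO14 2 rose (CDK1 and BUB3) and 4 fell (CENPE, CENPF, CDC25B and TPX2), with 8.92% and 21.2% of all genes, which is no more than the background. In PEA2 3 rose (CDK1, BUB3 and NUSAP1) and 0 fell, with 3.54% and 10.8% of all genes. With the replicate number as a term in the fit, 5 were called there. In PEA1, with 1 untreated library, limma called 0 in either direction, with 0.6% and 5.3% of all genes, and 4 of the 36 had an unadjusted p under 0.05. For counts at an unadjusted p, here and below, the share of all genes was not counted. The genes' median log2 difference was 1.46 in PEO4 and 0.94 in PEO1, against -0.23 and -0.15 over all genes. It was 0.41 in PEA2, 0.32 in PEA1 and 0.03 in PEO14, against -0.02, 0 and -0.16 over all genes. Averaged over the 5 lines, 26 rose and 4 fell (CDC25B, CENPE, CENPF and TPX2), with 23.9% and 39.7% of all genes. In TPM without rescaling the balance turned, with 8 higher and 12 lower and a median of -0.34 against 0.61 rescaled (-0.74 and -0.22 for all genes). Of the 26, 12 were then below 0, namely ANLN, AURKA, CCNB2, CDC20, CDC25C, CENPA, KIF20A, KIF23, KIF2C, NUSAP1, TOP2A and UBE2C. No share of all genes called in unrescaled TPM is given, here or below, and the shares printed are those in rescaled TPM.

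The rises in PEO4 and PEO1 depend in part on the rescaling. The 8 h libraries of these lines carried 27.6% and 38.2% RMRP and RPPH1 in PEO4 and 21.1% and 41.2% in PEO1, whereas their untreated libraries carried 7.23% to 13.9%; the part of these RNAs in the result was not tested. In TPM as deposited, the median of all genes was -1.12 in PEO4 and -1.14 in PEO1 and that of the 36 genes -0.13 and -0.77, and 8 of the 36 genes were called higher and 7 lower in PEO4, 4 higher and 8 lower in PEO1. On that scale CDK1 was still higher by 2.64 in PEO4 and 1.45 in PEO1, CKS2 by 3.03 and 1.86 and MAD2L1 by 4.40 and 3.07, all called, and CDC25B and CENPF were still called lower. Of the genes that rose after rescaling, 7 of 24 in PEO4 and 8 of 21 in PEO1 were below 0 on that scale. Without libraries above 30% of RMRP and RPPH1, which leaves a single 8 h library per line, 26 rose and 2 fell in PEO4 and 22 rose and 2 fell in PEO1. With all 54 libraries in the fit, 2 rose in PEO4 and 1 in PEO1, and with only the compared groups in it 14 and 11. Counts from such alternative fits, here and below, have no share of all genes beside them. The shares printed are those of the main fit.

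**Figure D2:**
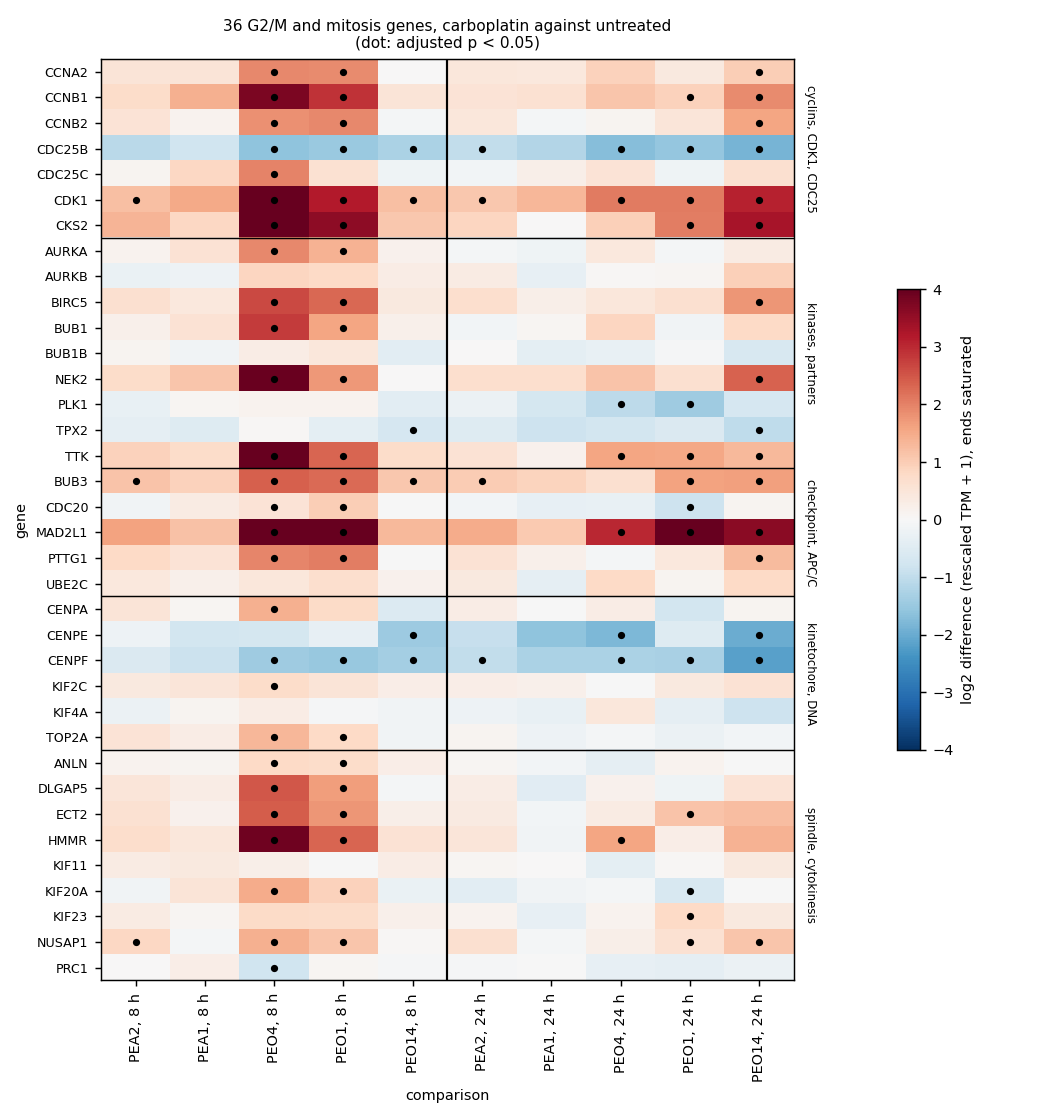
Log2 difference (rescaled TPM + 1, colour) of each of the 36 genes (rows, by role) in 5 lines at 8 h and 24 h of carboplatin against untreated cultures, where a dot marks an adjusted p under 0.05 and values beyond the colour scale take its end colour. Dots are densest at 8 h in PEO4 (27) and PEO1 (23), and the rows of CDC25B and CENPF are below 0 in every column.

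By role, 6 of the 7 cyclin, CDK1 and CDC25 genes rose in PEO4 at 8 h and 5 in PEO1, and CDC25B fell in both. As background for each role, 21.6% of all genes were called higher and 32% lower in PEO4, and 17.5% and 24.5% in PEO1. Of the 5 checkpoint and APC/C genes 4 rose in both lines, with CDC20 below 0 in unrescaled TPM, and UBE2C, an enzyme that tags APC/C substrates, was not called. UBE2C had 246 and 165 rescaled TPM at 8 h in PEO4, against 154, 266 and 78.2 untreated, and the groups overlap. Of the 9 kinases and partners 5 rose in each of PEO4 and PEO1 (AURKA, BIRC5, BUB1, NEK2 and TTK), though AURKA and BUB1 were below 0 in PEO1 in unrescaled TPM. PLK1 was not among them, with 45.1 and 38.9 at 8 h in PEO4, against 46.1, 52.1 and 22.3 untreated, nor was AURKB, with 28.4 and 46 against 41.2, 46.8 and 3.18. Of the 6 kinetochore and chromosome genes 3 rose in PEO4 (CENPA, KIF2C and TOP2A) and 1 in PEO1 (TOP2A). The share in PEO1 is no more than the background, and all of these genes were below 0 in unrescaled TPM. Of the 9 spindle and cytokinesis genes 6 rose in each line, among them HMMR and ECT2, while ANLN, KIF20A and NUSAP1 in both lines and DLGAP5 in PEO1, also among them, were below 0 in unrescaled TPM, and PRC1, which bundles the central spindle, fell in PEO4 with a log2 difference of -0.80 ± 0.31.

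After 24 h the genes called either way numbered 8 in PEO4 and 14 in PEO1, against 27 and 23 at 8 h, but 16 in PEO14 and 4 in PEA2, against 6 and 3. Of all genes, 7.26% were called higher and 12.7% lower in PEO4 at 24 h, against 21.6% and 32% at 8 h. In PEO1 it was 15.7% and 22.9%, against 17.5% and 24.5%. In PEO14 it was 13.5% and 22.7%, against 8.92% and 21.2%, and in PEA2 4.77% and 12.5%, against 3.54% and 10.8%. Taken either way, the 24 h counts in PEO4 and PEO1 are near these shares. In rescaled TPM CDK1 was called higher in PEA2, PEO4, PEO1 and PEO14, with log2 differences of 1.07, 2.06, 2.09 and 3.07. CDC25B and CENPF were called lower in the same 4 lines. CDK1 had 167, 173 and 157 rescaled TPM at 24 h in PEA2, against 92, 84 and 62 untreated, and 143, 150 and 131 at 24 h in PEO1, against 34.4, 24.3 and 40.5 untreated. CENPF had 64.2, 52.3 and 61.2 at 24 h in PEA2, against 119, 124 and 113 untreated, and 21.4, 23.3 and 23.9 at 24 h in PEO1, against 69.5, 43.6 and 64.5 untreated. No treated value of either gene overlapped an untreated one in these lines. BUB3 was called higher in PEA2, PEO1 and PEO14, and TTK and MAD2L1 in PEO4, PEO1 and PEO14. In unrescaled TPM CDK1 was at 0.62 in PEA2 and 1.56 in PEO4 and CENPF at -1.45 and -1.79, none called. Both stayed called in PEO1 and PEO14, as did CDC25B in all 4 lines and MAD2L1 in its 3. On that scale BUB3 was called only in PEO1 and TTK in no line. The 24 h values of PEO4 and PEO14 rest on 1 library each.

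PLK1, CDC20 and KIF20A stood below their untreated level in PEO1 at 24 h. PLK1 had 16.7, 15.8 and 15.8 rescaled TPM at 24 h in PEO1, against 33.3, 52.1 and 52.8 untreated, a log2 difference of -1.43 ± 0.25 (adjusted p = 6.2e-05, limma with Benjamini-Hochberg adjustment). CDC20 had 76.9, 63.1 and 63.3 at 24 h, against 113, 139 and 109 untreated, and KIF20A, the kinesin of the cleavage furrow, had 20, 21.3 and 20.7, against 38.9, 25.9 and 35.6. No 24 h library of these 3 genes reached an untreated one. In PEO4, with 1 library at 24 h, PLK1 was also called lower (18 against 46.1, 52.1 and 22.3).

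In counts, 9 of the 36 genes rose and 5 fell in PEO1 at 24 h, with 15.7% and 22.9% of all genes (4 and 6 in unrescaled TPM), and 4 rose and 4 fell in PEO4, with 7.26% and 12.7% (1 and 1 in unrescaled TPM). In PEO14, with 1 library at 24 h, 12 rose and 4 fell, with 13.5% and 22.7% of all genes; in unrescaled TPM the balance turned, with 3 higher and 7 lower, and the median was -0.69 against 0.61 rescaled. In PEA2 2 rose and 2 fell, with 4.77% and 12.5%. In PEA1 limma called 0 in either direction, with 0.788% and 5.23% of all genes, and 6 of the 36 had an unadjusted p under 0.05. In rescaled TPM, 9 genes were above 0 in all 5 lines and 7 were below 0 in all 5, namely CDC25B, PLK1, TPX2, CENPE, CENPF, KIF20A and PRC1. At 8 h it had been 17 above and 3 below. These comparisons share each line's untreated libraries.

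The signed log2 difference against untreated cultures tended to be lower in genes with longer transcripts, though the relation was weak. Length is that of a gene's longest coding transcript in GENCODE release 29. Among the 12 genes with the shortest transcripts (613 to 2248 bases), the median log2 difference at 8 h was 1.94 in PEO4 and 1.19 in PEO1. It was 1.67 and 1.35 in the middle 12 (2409 to 3723 bases) and 0.54 and 0.60 in the longest 12 (3725 to 10307 bases). All genes of the same lengths had medians of 0, -0.27 and -0.49 in PEO4 and 0.11, -0.15 and -0.40 in PEO1, so each group of 12 lay above the genes of its length. Spearman's rho of change with length in these 10 comparisons was -0.11 to -0.39 over the 36 genes and -0.16 to -0.34 over the 14843 genes with a length; the points share libraries. CKS2 has the shortest transcript of the 36 and CENPF and CENPE the longest. In rescaled TPM CENPF, at 10307 bases, was called lower in 4 lines at 24 h and BUB3, at 7828 bases, higher in 3. At 24 h against 8 h, rho over the 36 genes ran from -0.54 in PEO14 to 0.52 in PEO1 (-0.24 and 0.28 over all genes with a length). It was 0.37 in the mean of 4 lines (0.05 over all). The part of length in the changes was not tested.

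**Figure D3:**
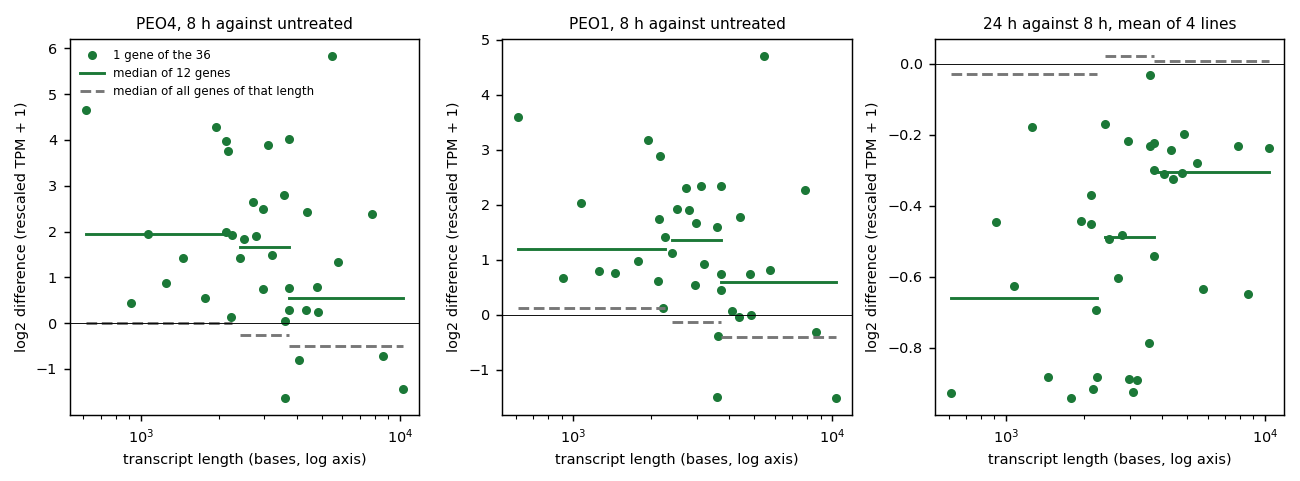
Log2 difference (rescaled TPM + 1) against transcript length (bases, log axis) for the 36 genes at 8 h against untreated in PEO4 and PEO1, and at 24 h against 8 h averaged over PEA2, PEA1, PEO1 and PEO23, with solid lines for the median of each 12 genes and dashed lines for the median of all genes of that length. The solid lines fall from 1.94 to 0.54 in PEO4 with length and lie above the dashed ones, and in the right panel all 36 points lie below 0, of which 21 do in unrescaled TPM.

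The second question was how the genes moved between 8 h and 24 h of the drug, a comparison that uses no untreated library. For CDC20, the APC/C activator, and KIF20A, every 24 h library lay below every 8 h library in PEA1, PEO1 and PEO23 in rescaled TPM. CDC20 had 54.3, 65.2 and 61.2 rescaled TPM at 24 h in PEO23, against 209, 113 and 149 at 8 h, and 76.9, 63.1 and 63.3 at 24 h in PEO1, against 244 and 227 at 8 h. It had 146, 143 and 182 at 24 h in PEA1, against 246, 251 and 244 at 8 h, and 123, 102.9 and 127 at 24 h in PEA2, against 139 and 97.4 at 8 h. In rescaled TPM the groups did not overlap in PEO23, PEO1 and PEA1 and did in PEA2. In unrescaled TPM those of PEO23 and PEO1 overlapped too. The log2 difference of CDC20 was -1.33 ± 0.21 in PEO23 (adjusted p = 0.0012, limma with Benjamini-Hochberg adjustment) and -1.79 ± 0.23 in PEO1 (adjusted p = 0.00013). It was -0.66 in PEA1 and 0.01 in PEA2, neither called. In unrescaled TPM it was -1 in PEO23 and -0.62 in PEO1, neither called.

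KIF20A had 22.8, 30.8 and 19.9 rescaled TPM at 24 h in PEO23, against 80.4, 46.7 and 34 at 8 h, and 31.9, 28.1 and 25.5 at 24 h in PEA1, against 45.3, 47.8 and 44.4 at 8 h. PLK1 had 24.5, 19.5 and 24 at 24 h in PEA1, against 35.6, 37.4 and 45.5 at 8 h, and 16.7, 15.8 and 15.8 at 24 h in PEO1, against 56.6 and 42.9 at 8 h. AURKA, the centrosomal Aurora kinase, had 71.3, 80 and 55.8 at 24 h in PEA1, against 107, 125 and 118 at 8 h, and 39.6, 68 and 27.4 at 24 h in PEO23, against 98.6, 95.5 and 71.3 at 8 h. In each of these 6 pairs of groups the highest 24 h library lay below the lowest 8 h library in rescaled TPM. In unrescaled TPM the groups of PEA1 stayed apart and those of PEO1 and PEO23 overlapped. On that scale KIF20A was at -0.43 in PEO1 and -0.71 in PEO23 and PLK1 at -0.43 in PEO1, none called. In PEA2 KIF20A overlapped in rescaled TPM (30.6 to 41.2 at 24 h, 40.4 to 48.5 at 8 h), as did PLK1 (34.9 to 43.9 at 24 h, 32.4 to 40.6 at 8 h). CCNB1 had 53.9, 60.3 and 49.1 at 24 h in PEA1, against 92.6, 107 and 85.9 at 8 h, again without overlap, and 130, 136 and 106.4 at 24 h in PEA2, against 131 and 149 at 8 h, with overlap.

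Averaged over the 4 lines with at least 2 kept libraries at each time (PEA2, PEA1, PEO1 and PEO23), all 36 genes were below 0 (21 in unrescaled TPM), and 9 of the 36 were called lower and 0 higher, in a background of 0.217% and 0.0333% of all genes. The 9 were CDC20 (log2 difference -0.94 ± 0.11), CCNB1 (-0.92 ± 0.17), KIF20A (-0.89 ± 0.13), DLGAP5 (-0.89 ± 0.15), CENPA (-0.88 ± 0.18), AURKA (-0.88 ± 0.16), BUB1 (-0.79 ± 0.16), PLK1 (-0.69 ± 0.13) and TOP2A (-0.63 ± 0.14). The median was -0.45 for the 36 and 0 for all genes. In this average 39 genes of the whole table were called lower, so the 36 hold 9 of 39. The calls depended on the fit. With cultures of the same replicate number and passage taken as pairs, limma called 0 of the 36 at an adjusted p under 0.05. It called 7 genes in all at that threshold. At an unadjusted p under 0.05 it was 21 of the 36, with the share of all genes not counted. In unrescaled TPM, where the median of all genes was 0.19, 0 were called and 7 had an unadjusted p under 0.05, and the median of the 36 was -0.12. Without libraries above 30% of RMRP and RPPH1 2 were called, without replicates 1, 2 and 3 in turn 0, 3 and 1, with all 54 libraries 0, and with only the compared groups in the fit 13. The 24 h PEO23 libraries carried 15.6%, 32.3% and 45.6% RMRP and RPPH1, against 23.4%, 39.8% and 44.4% at 8 h; the part of these RNAs was not tested.

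**Figure D4:**
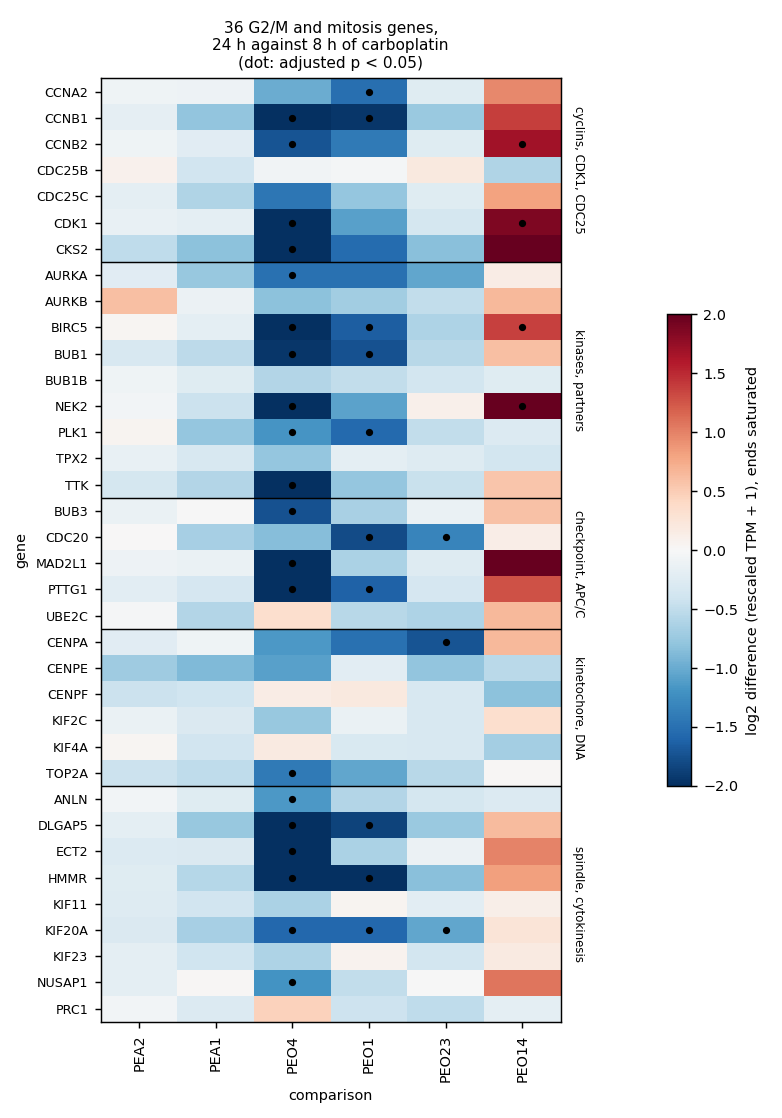
Log2 difference (rescaled TPM + 1, colour) of each of the 36 genes (rows, by role) at 24 h against 8 h of carboplatin in 6 lines, where a dot marks an adjusted p under 0.05 and values beyond the colour scale take its end colour. Blue fills most of PEA1, PEO4, PEO1 and PEO23 and red most of PEO14, in which, as in PEO4, 1 library stands for 24 h; in unrescaled TPM the median turns to 0.30 in PEO1 and -0.18 in PEO14.

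Line by line, the medians of the 36 genes at 24 h against 8 h were -0.17 in PEA2, -0.38 in PEA1, -1.30 in PEO4, -0.77 in PEO1, -0.36 in PEO23 and 0.59 in PEO14, where all genes had 0; in unrescaled TPM it was 0.30 in PEO1 (all genes 0.62) and -0.18 in PEO14 (all genes -0.36). In PEA1 35 of the 36 were below 0. In rescaled TPM, all 3 libraries at 24 h were below all 3 at 8 h for 18 of the 36 in PEA1, against 4.69% of all genes. The same held for 8 of the 36 in PEO23, against 3.68%. With 2 libraries at 8 h the same held for 26 of the 36 in PEO1, against 17%, and for 7 of the 36 in PEA2, against 8.96%. In calls, PEO1 had 10 lower and 0 higher, with 0.122% and 0.0944% of all genes. The 4 largest were HMMR (-2.06), CCNB1 (-1.95), DLGAP5 (-1.85) and CDC20 (-1.79). With same-passage pairs 1 was called in PEO1, without replicates 1, 2 and 3 in turn 4, 0 and 1, without libraries above 30% of RMRP and RPPH1 4, with only the compared groups in the fit 1, and in unrescaled TPM or with all 54 libraries 0. PEO23 had 3 lower (CENPA, CDC20 and KIF20A) and 0 higher, with 0.316% and 0.0777% of all genes, and 0 with same-passage pairs, in unrescaled TPM or with only the compared groups in the fit. PEA1 and PEA2 had 0 called either way in limma, with 0.00555% lower and 0.0222% higher of all genes in PEA1 and 0% and 0% in PEA2; 7 of the 36 had an unadjusted p under 0.05 in PEA1 and 0 in PEA2.

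In PEO4 20 of the 36 were called lower at 24 h than at 8 h and 0 higher, with 6.42% and 7.66% of all genes, and in PEO14 4 were called higher (NEK2, CDK1, CCNB2 and BIRC5) and 0 lower, with 0.538% and 2%. Each rests on 1 library at 24 h, whose spread is taken from the other groups. In PEO4 that library had 78.6 rescaled TPM of CDK1, against 284 and 474 at 8 h. In PEO14 it had 388 of CDK1, against 141, 110 and 74.9 at 8 h. The PEO4 count was 1 in unrescaled TPM and 0 with only the compared groups in the fit, and the PEO14 count was 0 with same-passage pairs and 0 in unrescaled TPM. Averaged over all 6 lines, 12 of the 36 were called lower and 0 higher, with 1.04% and 0.5% of all genes, 14 with same-passage pairs, 6 without replicate 3 and 0 in unrescaled TPM. The 12 were the 9 named above with HMMR (-0.87), TTK (-0.68) and BIRC5 (-0.54).

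The third question was whether the resistant line of a pair differed from the sensitive one. Untreated PEO4 had less of these genes than untreated PEO1: 13 of the 36 were called lower and 0 higher, with 13% and 15.4% of all genes. HMMR, a spindle-associated protein, had 7.35, 1.42 and 8.8 rescaled TPM in PEO4, against 19.8, 30.2 and 36.3 in PEO1, a log2 difference of -2.31 ± 0.40 (adjusted p = 4.8e-05, limma with Benjamini-Hochberg adjustment). CDC25B had 19.2, 19.5 and 15.4 in PEO4, against 55.9, 64.2 and 48.5 in PEO1, a log2 difference of -1.58 ± 0.34, and TOP2A, the topoisomerase that untangles chromosomes, had 64.3, 69.1 and 65.6, against 146, 107 and 172. None of these 3 genes overlapped between the lines. In unrescaled TPM 8 of the 36 were called lower. Without replicates 1, 2 and 3 in turn it was 5, 7 and 5, with only these groups in the fit 2, and with all 54 libraries 0.

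In the PEA pair TTK was higher and CENPA, the histone variant of centromeres, lower in the resistant line at each time. TTK had 72.2, 54.1 and 56.5 rescaled TPM in untreated PEA2, against 19.7 in the untreated PEA1 library. At 24 h it had 93.3, 100.9 and 79.3 in PEA2, against 21.1, 36 and 14 in PEA1, a log2 difference of 1.99 ± 0.35 (adjusted p = 5.6e-05, limma with Benjamini-Hochberg adjustment). CENPA had 5.88, 8.86 and 11.1 at 24 h in PEA2, against 16.7, 24.9 and 27 in PEA1. Neither gene overlapped between the lines at 24 h. TTK and CENPA were the 1 gene called higher and the 1 called lower untreated, with 6.32% and 5.25% of all genes. At 8 h 3 were called higher (TTK, ANLN and NUSAP1) and 2 lower (CENPA and CDC20), with 8.98% and 7.18% of all genes. At 24 h 5 were higher (TTK, CCNB1, ANLN, TOP2A and PLK1) and 1 lower, with 10.2% and 8.55%. These shares are near the background.

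Between PEO23 and PEO14 the results depended on scaling and libraries at both times. At 8 h 12 of the 36 were called higher in PEO23 than in PEO14 and 0 lower, with 6.83% and 8.01% of all genes. CKS2 had 521, 526 and 616 rescaled TPM at 8 h in PEO23, against 185, 145 and 31.8 in PEO14, a log2 difference of 2.53 ± 0.52, and CCNB1 had 466, 229 and 197, against 151, 104.2 and 79.9. Both stood apart without overlap in rescaled TPM. In unrescaled TPM CKS2 was at 1.64 and still called, and CCNB1 was at 0.46 and not called. At 24 h 0 were called higher and 2 lower (CDC20 and BIRC5), with 2.49% and 2.68% of all genes, against the 1 PEO14 library. The median of the 36 was 0.53 at 8 h and -0.59 at 24 h, but -0.35 at both times in unrescaled TPM, and 0.67 and 0.99 with all 54 libraries. The 8 h count was 4 without libraries above 30% of RMRP and RPPH1, which in PEO23 leaves out 2 of 3 libraries at 8 h, 1 in unrescaled TPM, 1 with only these groups in the fit, 0 with all 54 libraries, and 2, 5 and 6 without replicates 1, 2 and 3 in turn.

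Between PEO4 and PEO1 under carboplatin, 2 of the 36 were lower at 8 h (CDC25B and CDC20) and 0 higher, with 5.23% and 4.66% of all genes. At 24 h 7 were lower and 0 higher, with 9.68% and 11.9%, from the 1 PEO4 library. Averaged over the 3 pairs, 5 were higher (TTK, NUSAP1, NEK2, CDK1 and CCNB1) and 2 lower (CDC25B and CDC20) in resistant lines at 8 h, with 8.64% and 9.03% of all genes. The share called lower is no more than the background. In unrescaled TPM TTK and CDC20 were still called, while NUSAP1, NEK2, CDK1, CCNB1 and CDC25B were not. At 24 h 0 were higher and 5 lower (BIRC5, KIF2C, CENPA, PTTG1 and CDC20), with 11.1% and 8.84%. In unrescaled TPM BIRC5 was still called at 24 h, while KIF2C, CENPA, PTTG1 and CDC20 (-0.56) were not. In rescaled TPM CDC20 was called lower at both times, with log2 differences of -0.62 ± 0.13 and -0.57 ± 0.15, but not in every pair. Its mean was 157 rescaled TPM in PEO23 and 146 in PEO14 at 8 h, and 70.9 in PEO4 and 67.8 in PEO1 at 24 h. The 24 h average uses 1 library each of PEO4 and PEO14, and with all 54 libraries 0 of the 36 were called at either time.

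**Figure D5:**
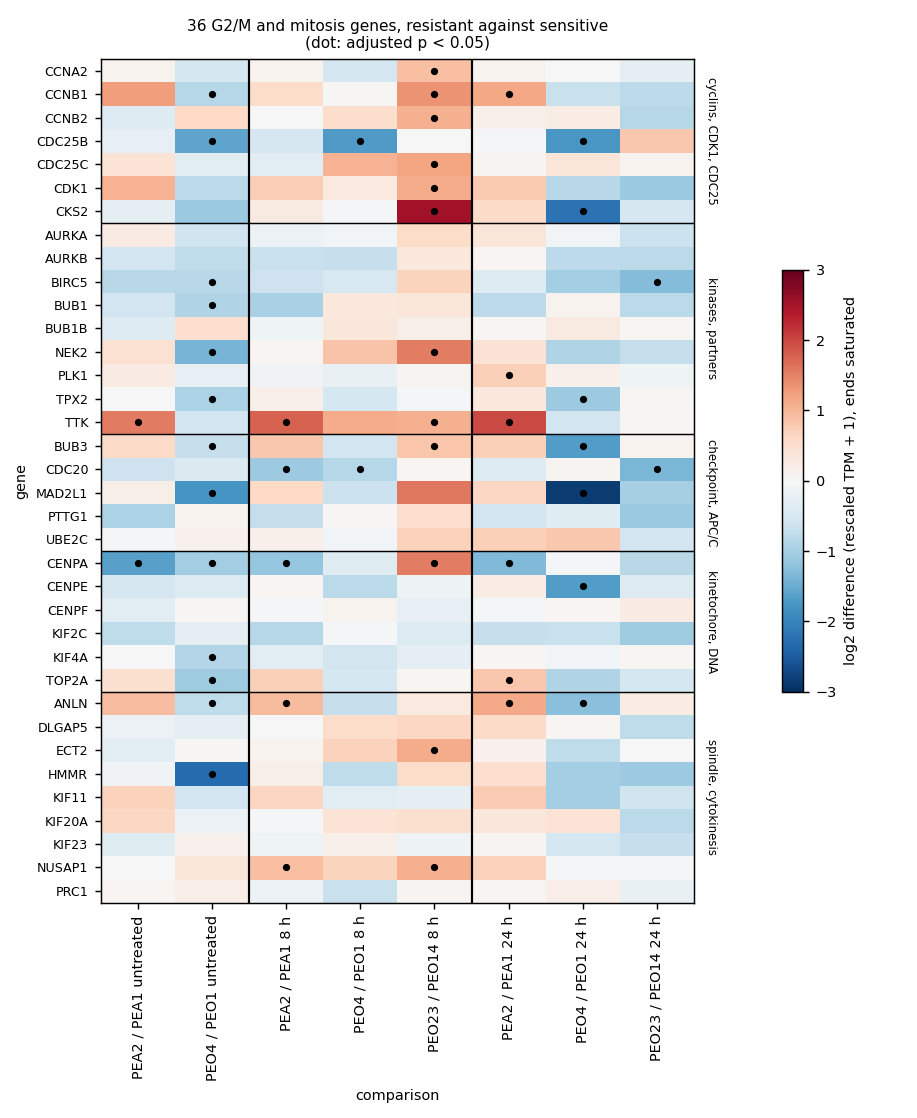
Log2 difference (rescaled TPM + 1, colour) of each of the 36 genes (rows, by role) in the resistant against the sensitive line of each pair, untreated, at 8 h and at 24 h of carboplatin, where a dot marks an adjusted p under 0.05 and values beyond the colour scale take its end colour. Untreated PEO4 against PEO1 carries 13 dots, all blue, and PEO23 against PEO14 at 8 h carries 12, all red, where the median of the 36 turns to -0.35 in unrescaled TPM.

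Whether the lines of a pair responded differently was tested directly. For the change at 24 h against 8 h, limma called 0 of the 36 genes for PEA2 minus PEA1, 0 for PEO4 minus PEO1 and 0 for PEO23 minus PEO14, with 0.00555%, 0.822% and 0.139% of all genes called either way, and 2, 6 and 18 of the 36 had an unadjusted p under 0.05. For 8 h against untreated it called 0 for PEA2 minus PEA1 and 0 for PEO4 minus PEO1, with 0.339% and 2.38% of all genes, and 0 and 6 had an unadjusted p under 0.05. For 24 h against untreated it called 0 in both, with 0.383% and 1.38% of all genes, and 0 and 1 had an unadjusted p under 0.05. The count for PEO23 minus PEO14 was 1 with a pseudocount of 0.1 and 3 without the filter on low values, and that for PEO4 minus PEO1 at 24 h against 8 h was 1 with same-passage pairs and 1 with only the compared groups in the fit. For PEO4 minus PEO1 at 8 h against untreated, leaving out a replicate gave 0 to 1. The unadjusted counts cannot be set against the percentages above, which are shares of all genes at an adjusted p under 0.05. A p that missed the threshold does not show equal responses.

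Among regulators, FOXM1, the activator of late cell cycle genes, fell at 8 h in PEO4, PEO1 and PEO14. It had 29.8 and 16 rescaled TPM at 8 h in PEO4, against 94.7, 91.9 and 137 untreated, and 102.4 and 84.5 at 8 h in PEO1, against 261, 271 and 246 untreated. Neither line's groups overlapped. The log2 difference was -2.23 ± 0.28 in PEO4 and -1.47 ± 0.28 in PEO1, and -0.97 ± 0.25 in PEO14, all called. It was -0.62 in PEA2 and -0.71 in PEA1, neither called. MYBL2, its partner on MuvB, was called lower in PEO4 (-1.69) and PEO1 (-1.34) at 8 h. At 24 h against untreated, FOXM1 was at -1.22 in PEO1 and -1.301 in PEO14, and MYBL2 at -0.7814 in PEO1. At 24 h against 8 h in PEO4 both were above 0, FOXM1 at 1.504 and MYBL2 at 1.403 (2.521 and 2.511 unrescaled). With all 54 libraries in the fit, MYBL2 was at -0.476 in that comparison. The 24 h values of PEO4 and PEO14 rest on 1 library each. FOXM1 was also lower in PEO4 than in PEO1, untreated (-1.28) and at 8 h (-2.04). WEE1, the kinase that holds CDK1 inactive, was called lower in PEO4 at 8 h (-0.87), and CDKN1A, the p53 target that inhibits CDKs, was called in none of the comparisons and stayed at 0 to 23 rescaled TPM.

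Other genes of the pathway were counted from lists by role, at 8 h against untreated. In rescaled TPM 21.6% of all genes were called higher and 32% lower in PEO4, 17.5% and 24.5% in PEO1, and 8.92% and 21.2% in PEO14. The counts of every list in unrescaled TPM have no such share beside them. Of 23 further kinetochore genes 18 rose and 0 fell in PEO4 and 12 rose and 0 fell in PEO1, though in unrescaled TPM it was 4 and 1 in PEO4 and 2 and 3 in PEO1. NUF2, a microtubule-binding subunit of the NDC80 complex, had log2 differences of 3.51 and 2.72 (1.88 and 1.01 unrescaled, the second not called). Of 14 APC/C genes 9 rose and 1 fell in PEO4 and 6 rose and 1 fell in PEO1, but 2 and 3 in PEO4 and 0 and 3 in PEO1 in unrescaled TPM, with ANAPC10 at 4.23 and 2.10 (2.92 and 0.51 unrescaled, the second not called). Of 30 further spindle and cytokinesis genes 11 rose and 7 fell in PEO4 and 9 rose and 8 fell in PEO1, and in unrescaled TPM 5 rose and 17 fell in PEO4 and 1 rose and 18 fell in PEO1. CDKN3, a phosphatase acting on CDKs, was at 5.50 and 3.90 and KIF18B, a kinesin of microtubule ends, at -4.37 and -3.04, and both were called in the same direction on either scale. In PEO14 0 of the 30 rose and 8 fell, a share near that of all genes, among them KIF18B (-2.08), CIT (-1.81), the citron kinase of the midbody, and IQGAP3 (-1.44).

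Of 20 genes of G1/S and replication 11 rose and 3 fell at 8 h in PEO4, 9 rose and 3 fell in PEO1, and 6 rose and 1 fell in PEO14; in unrescaled TPM it was 1 and 8, 0 and 9, and 1 and 1. PCNA, the sliding clamp of replication, was at 3.30, 2.62 and 1.74 (1.66, 0.89 and 1.16 unrescaled, not called in PEO1). Of 8 condensin genes 2 rose and 1 fell in PEO4, 1 rose and 1 fell in PEO1 and 0 rose and 2 fell in PEO14, and NCAPD2 was lower in all 3 lines (-1.56, -1.19 and -1.02). In unrescaled TPM 0 of the 8 rose in any of these lines and 3, 4 and 1 fell. Of 12 genes of the G2 brake 2 rose and 4 fell in PEO4 and 3 rose and 2 fell in PEO1, against 1 and 6 and 0 and 6 in unrescaled TPM. In rescaled TPM the shares of the condensin and brake lists are near those of all genes. FZR1, the other activator of the APC/C, was lower (-2.16 and -1.74) and CHEK2, a checkpoint kinase, higher (3.05 and 1.97; 1.69 and 0.43 unrescaled, the second not called). Of 11 further kinases and passenger proteins 6 rose and 3 fell in PEO4 and 4 rose and 3 fell in PEO1, against 2 and 4 and 0 and 5 in unrescaled TPM, with PBK at 3.93 and 3.20 (2.33 and 1.52 unrescaled, the second not called) and separase (ESPL1) at -1.99 and -1.78. Between 8 h and 24 h in the average of 4 lines, 2 of the 30 spindle and cytokinesis genes were called lower, DEPDC1 (-1.05) and PSRC1 (-0.84), and 0 rose; in unrescaled TPM they were at -0.71 and -0.52, neither called. In that average limma called 0 either way of the kinetochore, APC/C, condensin, G1/S, brake, kinase and regulator lists.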

How the data were processed

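Total RNA of 54 cultures was sequenced after a TruSeq stranded total RNA preparation, per the labels' protocols; the submitters' processing notes name bcl2fastq 2.18 and hg19. The deposited TPM values per gene were made by the authors with RSEM, per the name of the deposited file; its version, annotation and strand setting were not given in the sources used. TPM keeps no depth, so the depth per library is unknown, and no count test was run. Of the 54 columns 0 were left unmapped, and 28 symbols had been turned into dates.

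The 42 libraries listing at least 12000 genes above 0 were rescaled by the median ratio over 8287 genes, genes with at least 1 TPM in at least 3 libraries were kept (18013), and log2(rescaled TPM + 1) was fitted with limma 3.58.1 (mean-variance trend, R 4.3.3) on 17 groups, with Benjamini-Hochberg adjustment over all genes. Tables were handled in Python 3.11.15 with pandas 2.3.3. The replicates share a line, so p-values measure only the spread between repeats. The scripts were tested on simulated data for 24 h against 8 h. The changed genes were drawn above a minimum mean level, the noise was independent between genes and libraries, and the rescaling was not redone. Low genes, shifts shared by a whole library and the rescaling were therefore not tested. Of 100 genes given a log2 change of -1, limma called 3 in PEO1, 7 in PEA1 and 56 in the mean of 4 lines. Of 100 given -2 it called 49, 58 and 95. False calls were 7, 4 and 7. Cultures at 8 h and 24 h with the same line and replicate number share a passage in 18 of 18 cases, so the numbers pair them; correlations of their deviations were -0.296 to 0.519 over 10 pairs.

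The genes, their role groups and the other lists were chosen with earlier results of these data known. Named are 12 representatives of the roles, up to 4 called genes with the largest difference in each direction and, for other lists, up to 3; further genes were named after their values were seen. The alternatives were all 54 libraries, 53 of them, no rescaling, a pseudocount of 0.1, no filter, only the compared groups, the replicate block, leaving out each replicate, leaving out libraries above 30% RMRP and RPPH1, and a promoter window that ends at the gene's start. In that window of 250 bases, TTTGAA was in 16 of 30 promoters. Of the marker lists, fibroblast genes had a median above 1 TPM for 1 to 3 of 7 genes per line, leukocyte genes for 1 or 2 of 6 and endothelial genes for 0 or 1 of 4.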

Additional observations from a re-analysis of the deposited data

How the results depend on the processing

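Counts of the 36 genes called in a comparison depended most on which libraries entered, on the rescaling and on which groups shared the spread; the cause was not tested unless the alternative itself removes samples. Of 36 such counts, those under a pseudocount of 0.1 and without a filter on low values stayed within 1.5 times but for 1 each. The counts below have no share of all genes called in the same fit beside them. A change in these genes and a fit that calls fewer or more genes in all therefore cannot be told apart. Below, 24/8 h stands for 24 h against 8 h, and a line with 8 h or 24 h alone for that time against untreated. With all 54 libraries in the fit, the number called was 0 for PEA2 8 h, PEO14 8 h, PEA2 24 h, PEO1 24 h, PEO1 24/8 h, PEO4 24/8 h, PEO14 24/8 h, PEO23 24/8 h, PEO4/PEO1 untreated, PEA2/PEA1 8 h, PEO4/PEO1 8 h, PEO23/PEO14 8 h, PEA2/PEA1 24 h, PEO23/PEO14 24 h, the mean of 6 lines, the mean of 4 lines, the 8 h mean of pairs, the 24 h mean of pairs, 1 for PEA1 8 h, PEO1 8 h, 2 for PEO4 8 h, PEO4 24 h, 3 for PEO14 24 h and 11 for the 8 h mean of 5 lines. With 53 libraries, all but the one labelled untreated PEA1 replicate 3, whose markers go against its label, the number called was 0 for PEA2/PEA1 untreated and 11 for the 8 h mean of 5 lines. Without rescaling, the number called was 0 for PEA2 8 h, PEO1 24/8 h, PEO14 24/8 h, PEO23 24/8 h, PEA2/PEA1 untreated, PEO4/PEO1 8 h, PEO23/PEO14 24 h, the mean of 6 lines, the mean of 4 lines, 1 for PEA2 24 h, PEO4 24/8 h, PEA2/PEA1 8 h, PEO23/PEO14 8 h, the 24 h mean of pairs, 2 for PEO4 24 h, the 8 h mean of pairs, 3 for PEO14 8 h, PEA2/PEA1 24 h, PEO4/PEO1 24 h, 8 for PEO4/PEO1 untreated, 10 for PEO14 24 h, 12 for PEO1 8 h and 15 for PEO4 8 h. With a pseudocount of 0.1, the number called was 1 for PEO23 minus PEO14 in 24/8 h. Without a filter on low values, the number called was 3 for PEO23 minus PEO14 in 24/8 h. With only the compared groups in the fit, the number called was 0 for PEO4 24 h, PEO4 24/8 h, PEO14 24/8 h, PEO23 24/8 h, PEA2/PEA1 untreated, PEO4/PEO1 8 h, PEO23/PEO14 24 h, 1 for PEA1 24 h, PEO1 24/8 h, PEO23/PEO14 8 h, PEO4 minus PEO1 in 24/8 h, 2 for PEO4/PEO1 untreated, 3 for the 8 h mean of pairs, 7 for PEA1 8 h, 8 for the 24 h mean of pairs, 10 for PEA2 24 h, PEA2/PEA1 24 h, 12 for PEO1 8 h, PEA2/PEA1 8 h, 15 for PEO4 8 h and 19 for PEO4/PEO1 24 h. With the replicate block, the number called was 0 for PEO14 24/8 h, PEO23 24/8 h, the mean of 4 lines, 1 for PEO1 24/8 h, PEO4 minus PEO1 in 24/8 h and 5 for PEA2 8 h. Without libraries above 30% RMRP and RPPH1, the number called was 0 for PEO23 24/8 h, 1 for PEO4/PEO1 8 h, PEO23/PEO14 24 h, 2 for the mean of 4 lines, 3 for the 24 h mean of pairs, 4 for PEA1 8 h, PEA1 24 h, PEO1 24/8 h, PEO23/PEO14 8 h, 5 for PEA2/PEA1 untreated, 8 for PEA2 24 h, 9 for PEA2/PEA1 8 h and 11 for PEA2/PEA1 24 h, PEO4/PEO1 24 h.

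Named genes with the opposite sign with all 54 libraries in the fit, as log2 differences, were in PEO1 8 h (AURKA -0.6144), PEO4 24/8 h (MYBL2 -0.476), PEO14 24/8 h (BIRC5 -0.907), PEO23/PEO14 24 h (BIRC5 1.128). Named genes with the opposite sign without rescaling, as log2 differences, were in PEO1 8 h (ANLN -0.9759, AURKA -0.3045, BUB1 -0.1048, CDC20 -0.7564, KIF20A -0.7743, TOP2A -0.9202), PEO4 8 h (ANLN -0.8265, CDC20 -1.079, KIF20A -0.121, TOP2A -0.3086), the 8 h mean of 5 lines (ANLN -0.5415, AURKA -0.1016, CDC20 -0.6146, KIF20A -0.4356, TOP2A -0.3899, UBE2C -0.5753). Leaving out replicates 1, 2 and 3 in turn gave 0 to 2 for PEA2 8 h, 13 to 23 for PEO1 8 h, 2 to 6 for PEO14 8 h, 0 to 1 for PEA1 24 h, 1 to 1 for PEA2 24 h, 8 to 12 for PEO1 24 h, 4 to 10 for PEO4 24 h, 0 to 4 for PEO1 24/8 h, 13 to 19 for PEO4 24/8 h, 0 to 1 for PEO14 24/8 h, 0 to 2 for PEO23 24/8 h, 0 to 1 for PEA2/PEA1 untreated, 5 to 7 for PEO4/PEO1 untreated, 1 to 2 for PEA2/PEA1 8 h, 0 to 2 for PEO4/PEO1 8 h, 2 to 6 for PEO23/PEO14 8 h, 2 to 4 for PEA2/PEA1 24 h, 3 to 5 for PEO4/PEO1 24 h, 1 to 2 for PEO23/PEO14 24 h, 0 to 1 for PEO4 minus PEO1 in 8 h, 6 to 6 for the mean of 6 lines, 0 to 3 for the mean of 4 lines, 3 to 4 for the 8 h mean of pairs, 3 to 3 for the 24 h mean of pairs. The replicate block changed no other count by over 1.5 times. It pairs cultures of a shared passage for 24/8 h and adds the replicate number as a term for the other comparisons. The alternatives without libraries rich in RMRP and RPPH1, the fit with 53 libraries, the means over lines and the length groups were chosen after the data were seen. Where leaving out a replicate emptied a group, as for untreated PEA1 without replicate 1, no value could be given. With TPM alone the depth behind low genes such as untreated MAD2L1 is unknown, and a group of 1 library is assumed to vary like the others.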

Other observations

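In the average over PEA2, PEA1, PEO1 and PEO23, 16 of 69 tested histone genes were among the 39 genes that limma called lower at 24 h than at 8 h of carboplatin at an adjusted p under 0.05. The median log2 difference over all 69 was -0.91, and 68 of 69 were below 0, also without rescaling (median -0.56, 14 called). The calls depended on the fit: 1 of 69 was called with the replicate block, 0 with all 54 libraries (21 at an unadjusted p under 0.05), and 2, 4 and 1 without replicates 1, 2 and 3 in turn. HIST1H1D, a linker histone, had -1.47 and HIST1H2BM, a core histone H2B, had -1.43, both below 0 in 4 of 4 lines. HIST1H2BB had -1.56 but was above 0 in PEA1 (0.35). HIST2H4A and HIST2H4B hold identical values, as near-identical copies whose reads cannot be told apart. The library preparation was of total RNA, so transcripts without a poly(A) tail are included. This group was picked after its values were seen.

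Of the other genes called in that average, 2 come from the further spindle and cytokinesis genes, and GAS2L3, a cytoskeletal linker, had -0.89 and KNSTRN, a spindle protein, -0.59. Of the 6 genes called higher, ATF3, a stress-induced transcription factor, had 1.04 and was above 0 in 4 of 4 lines, whereas TXNIP, a thioredoxin inhibitor, had 0.91 with 3.12 in PEO1 and -0.28 in PEA2.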
